A study of Caenorhabditis elegans with 21 samples.

Results

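The null mutant *pmk-1(km25)*, called *pmk-1(-)* below, was compared with wild type across the whole transcriptome of whole animals with *daf-16* intact. The comparison took 6 of the 21 mRNA-seq libraries of the series, 3 of *pmk-1(-)*, strain BPW156, and 3 of wild type, strain BPW158, chosen by their genotype labels. Both strains grew on *E. coli* OP50 after synchronization, with 24 h in M9 buffer as L1 larvae and 48 h on food at 20 °C. The labels give the stage as late L4, whereas the study's text speaks of young adults. The wild type strain is a sibling of the outcrossed strain with the allele *pmk-1(miy7)*, not of the *pmk-1(-)* strain, and each genotype is represented by 1 strain. The study calls its replicates biological. The p-values rest on the spread between libraries of 1 genotype, pooled over all 9 genotypes of the series, not on these 6 libraries alone. For the same mutation in animals with a mutated *daf-16*, 2 libraries each of *daf-16(mgDf50);pmk-1(-)* and *daf-16(mgDf50)*, and of *daf-16(m26);pmk-1(-)* and *daf-16(m26)*, were used, and the 3 genotypes with *pmk-1(miy7)*, alone or with either *daf-16* allele, entered only the estimate of the spread and the description of levels across the series.

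PMK-1 is a p38 mitogen-activated protein kinase. In *C. elegans* it is activated by the adaptor TIR-1, the MAP3K NSY-1 and the MAP2K SEK-1, and it acts on transcription factors that include ATF-7 and SKN-1. The pathway is best known for the basal and pathogen-induced expression of secreted defence proteins in intestine and epidermis, and DAF-16, the FOXO factor of insulin signaling, is a separate regulator of stress and defence genes. Which other genes and pathways depend on *pmk-1* in animals on their normal food is what a comparison of all genes can describe.

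Values are the authors' TPM, a measure of transcripts scaled for gene length so that each library sums to 1e+06. The scaling removes the read depth, and no counting error can be given for a value. Of 22840 genes in the table, 12843 averaged 1 TPM or more across the 21 libraries and were fitted with limma on log2(TPM + 1), and fold changes are on that scale, which understates the change of genes with low values. A gene was called changed at an adjusted p below 0.1. The correlation of log2(TPM + 1) between any 2 of the 6 libraries lay between 0.921 and 0.992, and no 2 libraries were identical. The first principal component held 76% of the variance among the 6 libraries and did not separate the genotypes, whereas the second, with 11.9%, separated all 3 *pmk-1(-)* libraries from all 3 wild type libraries. The first placed *pmk-1(-)* replicate 1 at 59.7, replicate 3 at 20.2 and replicate 2 at -46.95, against wild type replicate 3 at 18.6, replicate 1 at -8.20 and replicate 2 at -43.3.

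The transcript of *pmk-1* itself was present in the null mutant. It stood at 11.47, 10.7 and 11.7995 TPM in the 3 *pmk-1(-)* libraries, against 14.3, 14.1 and 15.3 TPM in wild type. The 2 groups did not overlap, but the difference of -0.34 ± 0.10 log2 units (SE) was not called (limma, adjusted p = 0.37). A value per gene does not show whether the deleted stretch is read, so it does not check the allele.

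Of the 12843 genes tested, 81 were called, which is 0.631%. Of these, 69 were lower in *pmk-1(-)*, 0.537% of the genes tested, and 12 were higher, 0.0934%. All 81 had 3 *pmk-1(-)* libraries on one side of all 3 wild type libraries, as did 782 genes, 6.09%, of all tested. Among the genes that fell, 17 did so by more than 2 log2 units, 34 by 1 to 2 and 18 by less, and 10 of the 12 genes that rose did so by more than 1. The wild type mean was under 5 TPM for 23 of the 81 and over 100 TPM for 7. The median log2 fold change of all tested genes was -0.05, and 42.7% of them lay above 0. Every library was also shifted so that its median log ratio to the mean library was 0. That ratio was taken over genes with a mean log2(TPM + 1) of at least 3. This shift, called rescaling below, moved the median of all tested genes by 0.105 to 0.05. With it 54 genes were called, 43 lower and 11 higher, of which 49 were among the 81. The direction of each of the 81 stayed the same with every setting tried, but 36 of them were lost when 1 of the 6 libraries was left out, and such losses are given beside the genes. At an unadjusted p below 0.05, 597 genes (4.65%) differed, 266 (2.07%) higher and 331 (2.58%) lower.

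**Figure D1:**
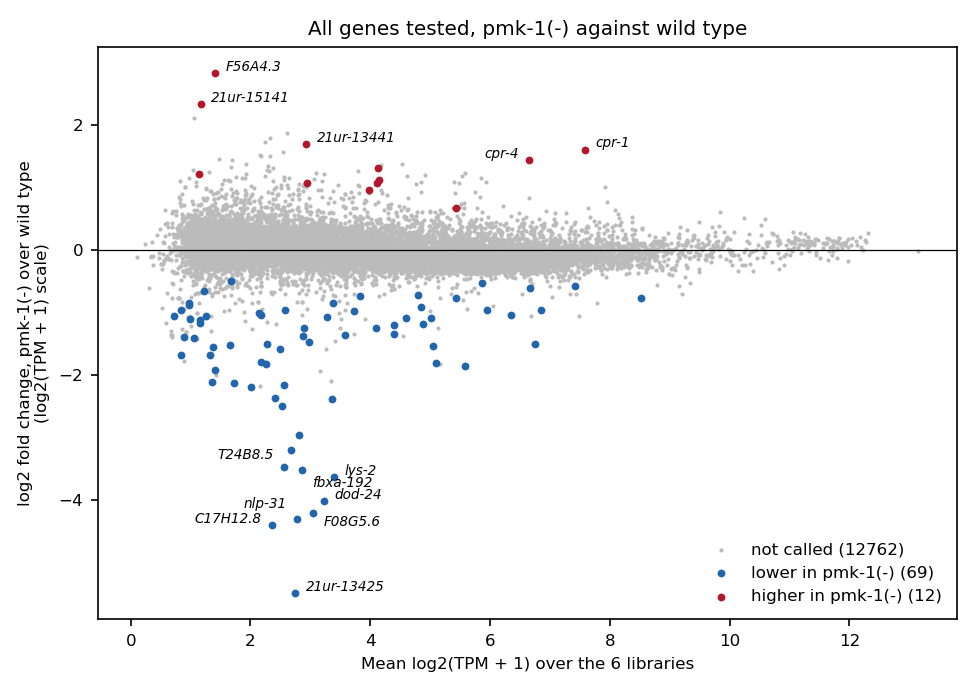
Log2 fold change of *pmk-1(-)* over wild type (vertical axis, log2(TPM + 1) scale) against mean log2(TPM + 1) over the 6 libraries (horizontal axis) for all 12843 genes tested, with 69 genes called lower in blue, 12 called higher in red and the rest in grey. The called genes that fell reach -5.50, whereas the genes that rose reach 2.83, and few called genes lie at high expression.

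Many of the strongest falls were in secreted proteins with a CUB-like domain, a family of intestinal defence proteins. *C17H12.8* stood at 0.169, 0.0278 and 0.152 TPM in the *pmk-1(-)* libraries, against 18.2, 11.3 and 54.7 TPM in wild type. This was a change of -4.40 ± 0.51 log2 units (SE, limma, adjusted p = 0.000381). The infection response gene *irg-4*, listed as *F08G5.6*, had 1.17, 1.12 and 0.510 TPM in *pmk-1(-)* libraries and 47.1, 35.95 and 24.4 TPM in wild type libraries. Its log2 fold change was -4.22 ± 0.42 (SE, limma, adjusted p = 8.37e-05). The 2 groups lay far apart for both genes, although wild type replicate 3 of *C17H12.8* stood well above the other wild type libraries. For *dod-24*, first described as a gene downstream of DAF-16, the values were 2.60, 0.725 and 0.998 TPM in *pmk-1(-)* and 34.6, 26.1 and 54.8 TPM in wild type. The change was -4.03 ± 0.47 log2 units (SE, limma, adjusted p = 0.000381). The other infection response gene of this kind, *irg-5*, listed as *F35E12.5*, stood at 0.881, 1.02 and 1.49 TPM in *pmk-1(-)*, against 30.1, 12.82 and 16.05 TPM in wild type, where replicate 1 was the highest. Its log2 fold change was -3.20 ± 0.45 (SE, limma, adjusted p = 0.00183).

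Of 28 genes of the CUB-like family in the table, 22 were tested and 12 were called lower, none higher. One of the 12, *T10B10.3*, has the symbol *pkhm-2* in the annotation, which is not a name of this family, and without it 11 of 21 were called lower, with a median of -1.60. All 22 had a log2 fold change below 0, with a median of -1.50, against -0.05 over all genes tested. Beside those above, the called members were *F55G11.8* (-2.197), *C32H11.4* (-2.16), *K08D8.5* (-1.93), *F55G11.2* (-1.79), *K08D8.4* (-1.69), *F55G11.4* (*mbug-1* in the annotation, -1.60), *T10B10.3* (-1.35) and *ZK896.4* (-1.07), given as log2 fold changes. For example, *F55G11.8* had 1.48, 0.625 and 0.670 TPM in *pmk-1(-)*, against 7.15, 4.76 and 12.81 TPM in wild type. Members that were not called include the most abundant of the family, *F35E12.6*, with 81.8, 38.3 and 62.5 TPM in *pmk-1(-)* and 79.8, 57.2 and 96.7 TPM in wild type, and *F35E12.10*, with 59.5, 44.8 and 42.9 TPM in *pmk-1(-)* and 63.0, 55.5 and 63.8 TPM in wild type. Both groups of *F35E12.6* overlapped, with a change of -0.38 ± 0.34 log2 units (SE, limma, adjusted p = 0.746). How reads that match more than 1 member were counted is not stated, and the levels of similar members may depend on it. In the fit of only the 6 libraries 4 of the 22 were called, and *C32H11.4*, *F55G11.2* and *T10B10.3* were each lost without at least 1 library, *C32H11.4* without *pmk-1(-)* replicate 3 or wild type replicate 1 or 3 (limma, adjusted p from 0.14 to 0.163), *F55G11.2* without *pmk-1(-)* replicate 3 or wild type replicate 1 or 3 (limma, adjusted p from 0.169 to 0.226) and *T10B10.3* without wild type replicate 1 or 2 (limma, adjusted p from 0.116 to 0.142).

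Among antimicrobial peptides 3 genes fell, while most of the others lay above 0 without a call. Of 32 tested members of the nlp, cnc, fip, fipr and abf families, 3 were called lower and none higher, 21 lay above 0 and the list median was 0.39. The median deviation from the wild type mean was 1.11, -0.59 and 0.39 in *pmk-1(-)* replicates 1, 2 and 3, against 0.12, -0.26 and 0.16 in wild type. In the *daf-16* backgrounds the list medians were -0.11 with *mgDf50* and 0.05 with *m26*. The epidermal peptide *nlp-31* fell to 0.332, 1.02 and 0.348 TPM in *pmk-1(-)*, against 35.6, 25.6 and 27.9 TPM in wild type, a change of -4.31 ± 0.36 log2 units (SE, limma, adjusted p = 1.3e-05). The caenacin *cnc-4* was listed at 0 in all 3 *pmk-1(-)* libraries, against 1.95, 2.74 and 2.03 TPM in wild type (limma, adjusted p = 0.00105). Its neighbour *cnc-3* had 0.710, 1.29 and 0.637 TPM in *pmk-1(-)* and 3.996, 5.76 and 3.49 TPM in wild type, a change of -1.52 ± 0.28 log2 units (SE, limma, adjusted p = 0.018), and was lost without *pmk-1(-)* replicate 3 or wild type replicate 2 (limma, adjusted p from 0.105 to 0.108). The related *nlp-29* and *nlp-30* were lower in every *pmk-1(-)* library than in any wild type library but were not called in this fit (limma, adjusted p = 0.188 and 0.321). In contrast, the fip and fipr peptides lay mostly above 0 without being called. The most abundant member of all, *fipr-21*, had 566, 144 and 424 TPM in *pmk-1(-)* and 294, 186 and 330.0 TPM in wild type, and *fipr-1* had 93.1, 24.9 and 85.6 TPM in *pmk-1(-)* and 37.2, 25.7 and 51.2 TPM in wild type. Both overlapped between the groups.

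Lysozymes and other lytic proteins moved in both directions. The lysozyme *lys-2* had 2.89, 1.49 and 1.76 TPM in *pmk-1(-)*, against 33.9, 20.3 and 67.8 TPM in wild type, with a change of -3.63 ± 0.38 log2 units (SE, limma, adjusted p = 0.000123). The thaumatin-like gene *thn-2* was higher, with 19.4, 25.7 and 18.8 TPM in *pmk-1(-)* and 12.05, 10.5 and 8.74 TPM in wild type, a change of 0.96 ± 0.19 log2 units (SE, limma, adjusted p = 0.0342), and was lost without wild type replicate 2 or 3 (limma, adjusted p from 0.116 to 0.212). These were the only called members of 25 tested lysozymes, saposins and thaumatins, of which 19 lay above 0 with a median of 0.20. The most abundant tested member, *ilys-5*, an invertebrate-type lysozyme, had 1505, 1520.0 and 2083 TPM in *pmk-1(-)* and 1239, 1185 and 1432 TPM in wild type. Its groups did not overlap, but it was not called (limma, adjusted p = 0.488).

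C-type lectins, many of which are secreted and bind sugars, are the largest of the defence families. Of 223 members 79 were tested, 5 were called lower and none higher, and the median was 0.08. The largest falls were *clec-223*, with 1.65, 1.66 and 0.979 TPM in *pmk-1(-)* and 12.59, 17.1 and 9.33 TPM in wild type, and *clec-85*, with 4.31, 2.49 and 3.86 TPM in *pmk-1(-)* and 20.2, 18.2 and 31.5 TPM in wild type. Their log2 fold changes were -2.50 ± 0.24 (SE) and -2.40 ± 0.24 (SE), both called (limma, adjusted p = 8.04e-05 and 8.37e-05). The neighbouring *clec-65* and *clec-66* and the gene *clec-41* had log2 fold changes of -1.09, -1.39 and -1.197. Of these, *clec-66* was lost without *pmk-1(-)* replicate 2 or 3 or wild type replicate 1 or 3 (limma, adjusted p from 0.113 to 0.347) and *clec-41* without *pmk-1(-)* replicate 3 or wild type replicate 1 or 3 (limma, adjusted p from 0.136 to 0.24). The most abundant lectin, *clec-87*, stood at 730.4, 1517 and 1155 TPM in *pmk-1(-)* and 1339.8, 1433 and 1101 TPM in wild type and was not called.

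Outside the defence families, the falls included enzymes, transporters and regulators. The predicted detoxification enzyme *ugt-44*, a UDP-glucuronosyltransferase, had 1.44, 1.396 and 1.70 TPM in *pmk-1(-)*, against 13.97, 16.4 and 27.9 TPM in wild type, a change of -2.97 ± 0.23 log2 units (SE, limma, adjusted p = 7.12e-06). It was the one called member of 46 tested, whose median was 0.07. The F-box gene *fbxa-192* had 2.64, 0.290 and 1.05 TPM in *pmk-1(-)*, against 22.5, 26.7 and 21.7 TPM in wild type, a change of -3.53 ± 0.26 log2 units (SE, limma, adjusted p = 5.29e-06). F-box proteins select targets for ubiquitin ligases, and *fbxa-105* was the only other of 146 tested F-box, MATH and BTB genes that was called, at -0.89. A P-type cation ATPase, *catp-3*, had 0.649, 0.0271 and 0.0900 TPM in *pmk-1(-)* and 3.82, 3.20 and 6.56 TPM in wild type, with a change of -2.12 ± 0.36 log2 units (SE, limma, adjusted p = 0.0103).

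Smaller falls were seen in other transporters, enzymes and regulators. The folate transporter *folt-2* had 334, 298 and 222 TPM in *pmk-1(-)* and 469, 471 and 508.1 TPM in wild type, a change of -0.78 ± 0.14 log2 units (SE, limma, adjusted p = 0.0193). The sugar transporter of the SWEET family *swt-6* had 0.758, 0.306 and 0.437 TPM in *pmk-1(-)* and 1.89, 2.16 and 3.22 TPM in wild type, and the short-chain dehydrogenase *dhs-31* had 0.495, 0.305 and 0.242 TPM in *pmk-1(-)* and 1.61, 2.31 and 1.85 TPM in wild type. Both were called, at -1.18 and -1.11. The cystatin *cpi-1*, an inhibitor of cysteine proteases, had 79.9, 66.2 and 102 TPM in *pmk-1(-)* and 119.5, 123 and 133 TPM in wild type, a change of -0.61 ± 0.14 log2 units (SE, limma, adjusted p = 0.073). Also called lower were the astacin protease *nas-11* (-0.91), the nuclear hormone receptor *nhr-50* (-0.66), the acyltransferase *oac-20* (-1.42), the arrestin-domain gene *arrd-9* (-0.96) and the synaptotagmin *snt-2* (-1.101), given as log2 fold changes. Without single libraries *folt-2*, *swt-6*, *cpi-1* and *nhr-50* were lost, *folt-2* without wild type replicate 3 (limma, adjusted p = 0.113), *swt-6* without *pmk-1(-)* replicate 3 or wild type replicate 3 (limma, adjusted p from 0.118 to 0.172), *cpi-1* without *pmk-1(-)* replicate 1 or 2 or wild type replicate 1, 2 or 3 (limma, adjusted p from 0.123 to 0.347) and *nhr-50* without *pmk-1(-)* replicate 3 or wild type replicate 1 or 3 (limma, adjusted p from 0.228 to 0.247). With libraries rescaled, *folt-2*, *swt-6*, *cpi-1*, *nhr-50*, *oac-20* and *nas-11* were not called. Of 152 tested nuclear hormone receptors *nhr-50* was the only one called in the main fit, with a list median of 0.02.

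Of the 81 called genes, 37 belonged to none of the 54 lists examined. Most of them have only a sequence name. The largest falls among them were *T24B8.5*, the small secreted protein used as a reporter of this pathway, at -3.48, *K04F1.9* at -2.38 and *F01D5.1* at -2.13. *K04F1.9* had 2.405, 0.694 and 1.196 TPM in *pmk-1(-)* and 12.97, 7.63 and 13.9 TPM in wild type (limma, adjusted p = 8.37e-05). *F01D5.1* had 0.940, 0.271 and 0.591 TPM in *pmk-1(-)* and 5.71, 4.19 and 8.496 TPM in wild type (limma, adjusted p = 0.00122). The most abundant called gene of this kind was *F53H4.2*, with 159, 115 and 146 TPM in *pmk-1(-)* and 206, 188 and 232 TPM in wild type, a change of -0.58 ± 0.12 log2 units (SE, limma, adjusted p = 0.049). The groups did not overlap, but the call was lost without *pmk-1(-)* replicate 3 or wild type replicate 1 or 3 (limma, adjusted p from 0.118 to 0.295).

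The 2 rises of the highest expression were cathepsin B-like cysteine proteases. The gene *cpr-1* had 283, 305 and 429 TPM in *pmk-1(-)*, against 118, 120.3 and 91.7 TPM in wild type, 3.08-fold higher by the means, with a change of 1.602 ± 0.22 log2 units (SE, limma, adjusted p = 0.00178). Its paralog *cpr-4*, which encodes a secreted cathepsin, had 235, 96.0 and 194 TPM in *pmk-1(-)*, against 60.7, 49.2 and 72.7 TPM in wild type, a change of 1.43 ± 0.28 log2 units (SE, limma, adjusted p = 0.0335), and was lost without *pmk-1(-)* replicate 1 or 3 or wild type replicate 1 or 2 (limma, adjusted p from 0.138 to 0.186). Another member, *cpr-5*, missed the threshold, with 475, 327 and 393 TPM in *pmk-1(-)* and 289, 239 and 299.7 TPM in wild type (log2 fold change 0.52, limma, adjusted p = 0.104). Of 28 tested cathepsin and related proteases and their inhibitors, *cpr-1* and *cpr-4* were called higher and the inhibitor *cpi-1* lower. The list median was -0.05, above 0 with libraries rescaled, where 1 member was called higher and none lower. None of the 12 tested aspartyl proteases was called, and 3 of them lay above 0. The gene *asp-6* had 547, 329 and 552 TPM in *pmk-1(-)* and 664, 558 and 913 TPM in wild type (log2 fold change -0.59, limma, adjusted p = 0.68). The gene *asp-17* had the highest log2 fold change of the list, 1.86, with 20.98, 3.79 and 13.9 TPM in *pmk-1(-)* and 1.91, 0.875 and 5.01 TPM in wild type, and was called only with a replicate block (limma, adjusted p = 0.0923).

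Among the other rises were 2 troponins. The troponin C gene *tnc-2* had 35.1, 14.003 and 27.9 TPM in *pmk-1(-)*, against 11.05, 9.80 and 11.97 TPM in wild type, a change of 1.07 ± 0.23 log2 units (SE, limma, adjusted p = 0.0591). The troponin I gene *tni-4* had 69.8, 38.5 and 56.6 TPM in *pmk-1(-)*, against 34.3, 33.1 and 32.1 TPM in wild type, a change of 0.67 ± 0.15 log2 units (SE, limma, adjusted p = 0.0961). Both are isoforms of the pharyngeal muscle, and in both genes *pmk-1(-)* replicate 1 was the highest and replicate 2 the lowest of the mutant libraries. The other tested pharyngeal muscle markers were not called. The troponin T gene *tnt-4* had 13.8, 3.44 and 5.44 TPM in *pmk-1(-)* and 2.42, 2.04 and 1.84 TPM in wild type, and the pharyngeal myosin *myo-2* had 15.1, 3.07 and 0.887 TPM in *pmk-1(-)* and 2.29, 1.72 and 1.54 TPM in wild type. With the myosin *myo-1*, the 3 uncalled markers all lay above 0 and summed to 7.493 to 44.5 TPM in *pmk-1(-)*, against 5.28 to 7.485 TPM in wild type. With the troponins, the 5 tested markers reached 63.5 to 149.9 TPM in *pmk-1(-)*, against 49.1 to 53.0 TPM in wild type, most of it from the 2 called genes, and the sixth marker, ceh-22, did not pass the filter on low values. The part of pharyngeal tissue content in the troponin rises was not tested, and in whole animals more cells of a type and more RNA per cell cannot be told apart. Body wall muscle markers overlapped between the groups, at 925 to 2219.8 TPM summed in *pmk-1(-)* and 898 to 1527 TPM in wild type. Both troponin calls were lost when any library except *pmk-1(-)* replicate 2 was left out (limma, adjusted p from 0.163 to 0.319 for *tnc-2* and from 0.258 to 0.397 for *tni-4*). Neither troponin was called with libraries rescaled. In the *daf-16* backgrounds all 5 tested pharyngeal markers lay above 0, with medians of 0.48 with *mgDf50* and 0.69 with *m26*, and none was called.

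The remaining rises of protein-coding genes fell in none of the families above. *F56A4.3* was listed at 0 in all 3 wild type libraries and had 6.03, 5.50 and 6.82 TPM in *pmk-1(-)* (limma, adjusted p = 4.25e-07). *H19N07.3*, annotated as *nhj-1*, a gene needed for non-homologous end joining in *C. elegans*, had 22.7, 25.8 and 26.97 TPM in *pmk-1(-)*, against 11.16, 9.11 and 13.1 TPM in wild type, a change of 1.12 ± 0.14 log2 units (SE, limma, adjusted p = 0.000801). *C27D8.3* had 29.7, 39.9 and 15.2 TPM in *pmk-1(-)* and 9.77, 9.30 and 11.3 TPM in wild type (limma, adjusted p = 0.0342). *Y87G2A.19* had 11.45, 7.35 and 12.3 TPM in *pmk-1(-)* and 4.48, 4.17 and 4.24 TPM in wild type (limma, adjusted p = 0.0242). *F57A10.2* had 3.29, 1.06 and 3.28 TPM in *pmk-1(-)* and 0.392, 0.256 and 0.754 TPM in wild type (limma, adjusted p = 0.0961). None of the 5 overlapped between the groups. *F56A4.3* and *H19N07.3* stayed called without any 1 library, as did *cpr-1* and *21ur-15141*, whereas *C27D8.3* was lost without *pmk-1(-)* replicate 1 or wild type replicate 1 or 2 (limma, adjusted p from 0.136 to 0.16), *Y87G2A.19* without *pmk-1(-)* replicate 3 or wild type replicate 2 or 3 (limma, adjusted p from 0.1 to 0.148) and *F57A10.2* without *pmk-1(-)* replicate 1 or 3 or wild type replicate 1, 2 or 3 (limma, adjusted p from 0.157 to 0.478).

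Of 1352 piRNA and miRNA loci 294 were tested and 4 were called, 2 lower and 2 higher. The list median was -0.004, above 0 with libraries rescaled, with 145 loci above 0 and 149 below. The 4 called loci were all of 21U-RNAs, the piRNAs of *C. elegans*. Since poly-A RNA was sequenced, the values of these loci can hold reads of longer transcripts. The locus *21ur-13425* was listed at 0 in *pmk-1(-)*, against 32.4, 22.8 and 115 TPM in wild type, and overlaps the gene *C17H12.8* by the WBcel235 annotation. Likewise, *21ur-15387*, with 19.2, 13.9 and 18.9 TPM in *pmk-1(-)* and 61.1, 54.7 and 75.004 TPM in wild type, lies inside *F55G11.4*, and both host genes fell. The locus *21ur-13441*, with 9.62, 15.3 and 13.9 TPM in *pmk-1(-)* and 1.25, 4.56 and 5.17 TPM in wild type, lies inside *R04B5.3*, and its call was lost without *pmk-1(-)* replicate 2 or 3 or wild type replicate 1 (limma, adjusted p from 0.104 to 0.248). The remaining locus, *21ur-15141*, was listed at 0 in wild type and had 2.405, 6.94 and 3.78 TPM in *pmk-1(-)*. Without 21ur and mir features, an alternative chosen after seeing the data, 78 genes were called.

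**Figure D2:**
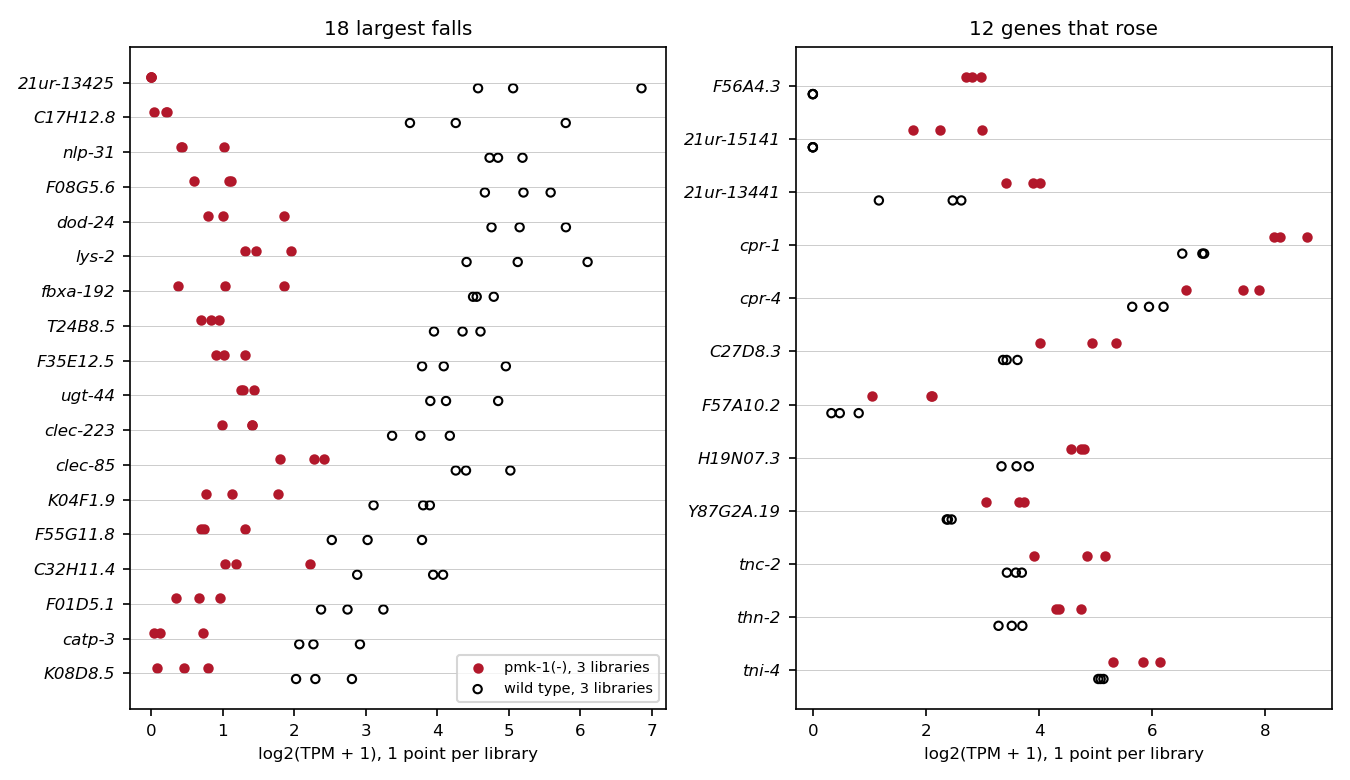
Level of the 18 genes with the largest falls (left) and of the 12 genes that rose (right) as log2(TPM + 1), with 1 point per library, *pmk-1(-)* filled in red above wild type in open black. The 3 *pmk-1(-)* libraries lie on one side of the 3 wild type libraries for every gene shown, and *F56A4.3*, *21ur-15141* and *21ur-13425* have 1 genotype at 0.

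The p38 pathway itself showed no called gene. Of 26 tested members, from *tir-1*, *nsy-1* and *sek-1* to the transcription factors, 13 lay above 0 and 13 below, with a median of -0.01, above 0 with libraries rescaled. At an unadjusted p below 0.05 (limma), 6 of the 26 were lower and 1 higher, against 2.58% and 2.07% of all tested genes. In the *daf-16* backgrounds 7 lay above 0 with *mgDf50* and 8 with *m26*. The medians there were both -0.06, against -0.02 and 0.04 over all tested genes. The kinase gene *sek-1* had 35.8, 34.6 and 32.5 TPM in *pmk-1(-)* and 32.5, 31.4 and 30.2 TPM in wild type, a change of 0.12 ± 0.08 log2 units (SE). Its upstream kinase *nsy-1* had 15.4, 11.81 and 12.4 TPM in *pmk-1(-)* and 11.39, 11.097 and 13.1 TPM in wild type. The adjoining p38 genes *pmk-2* and *pmk-3* stood at 4.18, 3.91 and 4.48 TPM and at 8.79, 6.87 and 8.83 TPM in *pmk-1(-)*, against 4.38, 4.49 and 4.72 TPM and 7.53, 7.35 and 9.11 TPM in wild type. The transcription factor gene *atf-7* had 95.3, 129.5 and 108 TPM in *pmk-1(-)* and 124, 140.2 and 117 TPM in wild type. For *vhp-1*, the phosphatase that acts on PMK-1, the 3 mutant libraries lay below wild type, with 8.76, 7.35 and 7.04 TPM in *pmk-1(-)* and 10.14, 9.33 and 10.4 TPM in wild type, but the difference was not called (limma, adjusted p = 0.746). The largest change of the list was *zip-2*, a bZIP factor of a separate surveillance response, with 44.1, 29.4 and 31.6 TPM in *pmk-1(-)* and 71.3, 62.6 and 68.4 TPM in wild type, at -0.95 ± 0.25 log2 units (SE, limma, adjusted p = 0.217).

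Lists of housekeeping and metabolic genes held few or no calls. No gene was called among 30 proteasome genes (median -0.08), 54 chaperones (-0.13), 31 autophagy and TOR genes (-0.16), 33 genes of mitochondrial respiration (0.01), 20 of glycolysis and gluconeogenesis (0.07), 57 of lipid breakdown (0.02), 22 of fatty acid synthesis (0.04) and 42 cytochromes P450 (-0.10). With libraries rescaled, the medians of the proteasome and cytochrome lists were above 0, so those 2 directions depend on the scale. The chaperone *daf-21*, the *C. elegans* HSP90, had 1766, 2267 and 2010.0 TPM in *pmk-1(-)* and 2021, 2454 and 1970.3 TPM in wild type, and *acdh-1*, an acyl-CoA dehydrogenase, had 1648, 1180.1 and 1558 TPM in *pmk-1(-)* and 1535, 1481 and 1677 TPM in wild type. Both overlapped between the groups. Among 33 tested glutathione S-transferases and 26 antioxidant enzymes none was called either, with medians of 0.11 and -0.05, the second of which was above 0 with libraries rescaled. The superoxide dismutase gene *sod-1* had 303, 309.6 and 323 TPM in *pmk-1(-)* and 310.2, 292 and 302 TPM in wild type. A list without a call is not shown to be unchanged, since 3 libraries a group leave small differences undetected.

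No gene of the cytosolic ribosome was called. Of 78 tested ribosomal protein genes 71 lay above 0, with a median of 0.11, or 0.22 with libraries rescaled. In the *daf-16* backgrounds 70 lay above 0 with *mgDf50*, at a median of 0.08, and 20 with *m26*, at a median of -0.03. In 29 of the 78 all 3 *pmk-1(-)* libraries lay above all 3 wild type libraries, as they did in 318 of all 12843 genes tested. For example, *rpl-10* had 4213, 4318 and 4381 TPM in *pmk-1(-)* and 3813, 3720.2 and 3899.8 TPM in wild type, a change of 0.18 ± 0.04 log2 units (SE, limma, adjusted p = 0.123). The genes summed to 218908 to 230389 TPM in *pmk-1(-)*, against 204778 to 214234 TPM in wild type. Cuticle collagens, in contrast, ranged from -0.70 to 1.72 over 111 tested genes with none called, and followed single libraries. Their median deviation from the wild type mean was 0.61, -0.61 and 0.16 in *pmk-1(-)* replicates 1, 2 and 3, against 0.16, -0.30 and 0.13 in wild type replicates 1, 2 and 3.

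**Figure D3:**
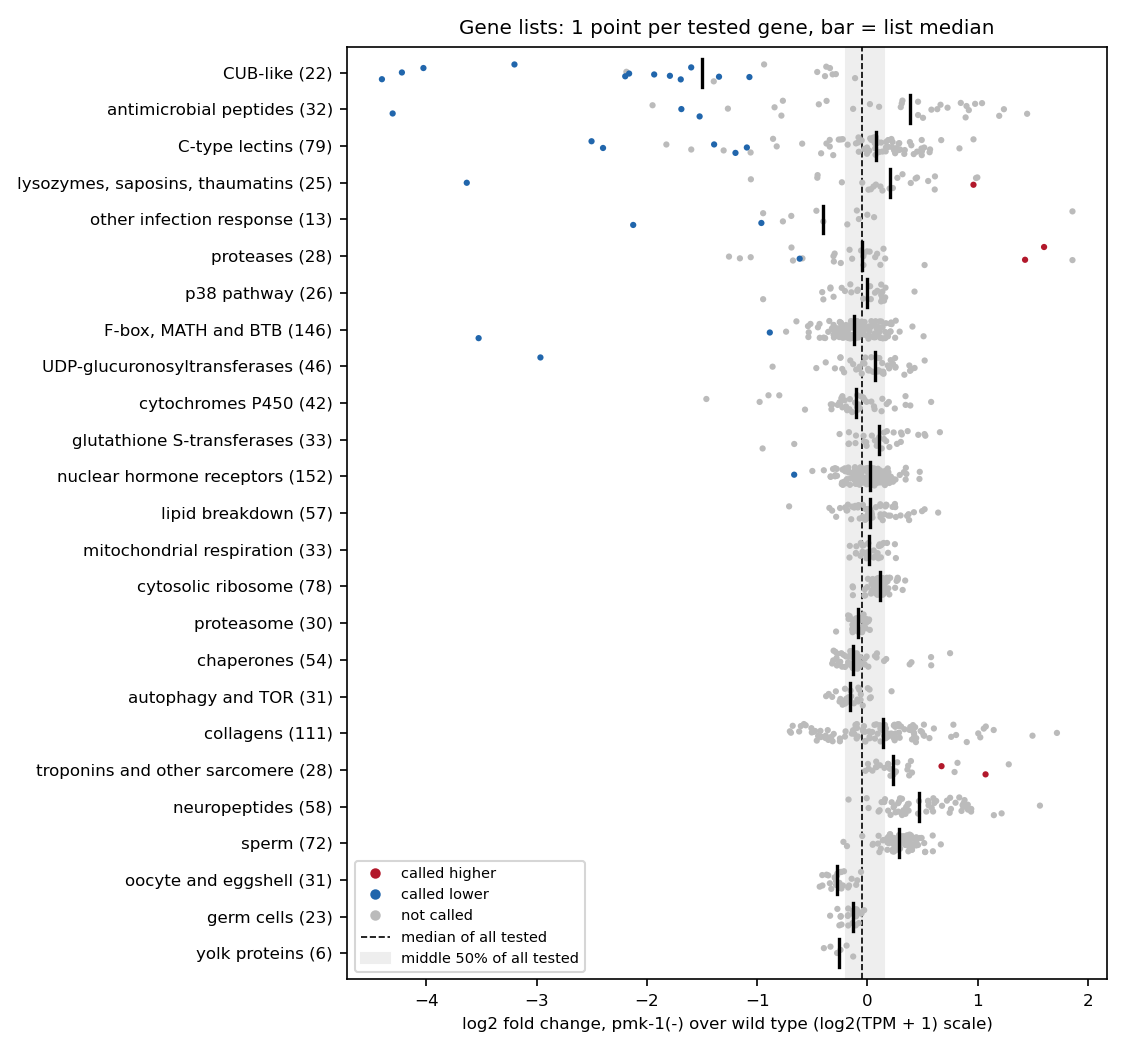
Log2 fold change of *pmk-1(-)* over wild type for the tested members of 25 gene lists, with 1 point per gene, called genes in color, the list median as a black bar and the number of tested genes in parentheses. The dashed line marks the median of all tested genes at -0.05 and the grey band their middle 50%, and the CUB-like list has a median of -1.50, the neuropeptide list 0.46, and most other lists lie near the dashed line.

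Neuropeptide genes lay mostly above 0, although none was called. Of 58 tested, 56 lay above 0, with a median of 0.46, against 42.7% of all genes above 0. Other lists were as one-sided, with 27 of 28 sarcomere genes (median 0.23) and 69 of 72 sperm genes above 0, and 31 of 31 oocyte and eggshell genes below 0, of which 3 lay above 0 with libraries rescaled. The neuropeptide list holds the FMRFamide-like and neuropeptide-like families and their processing enzymes, which act mainly in neurons. The gene *nlp-18* had 13.7, 4.18 and 12.3 TPM in *pmk-1(-)*, against 2.36, 2.15 and 2.72 TPM in wild type, a change of 1.56 ± 0.52 log2 units (SE, limma, adjusted p = 0.548). Likewise, *flp-24* had 34.6, 15.6 and 29.7 TPM in *pmk-1(-)*, against 15.1, 10.02 and 15.6 TPM in wild type, at 0.87 ± 0.32 log2 units (SE, limma, adjusted p = 0.746). The most abundant tested peptide gene, *nlp-40*, an intestinal peptide, had 194, 219 and 251 TPM in *pmk-1(-)* and 225, 192.4 and 250.3 TPM in wild type and lay at -0.01. In *nlp-18* and *flp-24* *pmk-1(-)* replicate 2 lay nearest to wild type. That held for the list as a whole, whose median deviation was 0.96, -0.20 and 0.83 in *pmk-1(-)* replicates 1, 2 and 3, against 0.05, -0.24 and 0.19 in wild type replicates 1, 2 and 3. Without *pmk-1(-)* replicate 2 the list median was 0.86. It was 0.30 when wild type replicate 2 was left out. The 8 neuron markers overlapped between the groups when summed, at 257 to 283 TPM in *pmk-1(-)* and 248 to 283 TPM in wild type. Their median log2 fold change was 0.15. By the measure used for the neuropeptides, their median deviation was 0.45, -0.19 and 0.22 in *pmk-1(-)* replicates 1, 2 and 3. In wild type replicates 1, 2 and 3 it was 0.01, -0.05 and 0.08. In the *daf-16* backgrounds the neuropeptide medians were -0.09 with *mgDf50* and 0.04 with *m26*.

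The genes of germline and gametes varied widely between replicates of either genotype. The 72 tested sperm genes, mainly major sperm proteins, had a median of 0.29 and 69 lay above 0. The 31 oocyte and eggshell genes had a median of -0.27, all below 0, and 23 germ cell genes had -0.13, all below 0, of which 7 were above 0 with libraries rescaled. No member of the 3 lists was called or had groups apart. Summed sperm genes reached 10094, 2381 and 7849 TPM in *pmk-1(-)* replicates 1, 2 and 3, against 5107, 2321 and 8033 TPM in wild type replicates 1, 2 and 3. Oocyte and eggshell genes summed to 8748, 16433 and 12039 TPM in *pmk-1(-)*, against 13956, 15796 and 12038 TPM in wild type, in the same order. Replicate 2 of both genotypes was low in sperm and high in oocyte transcripts, and *pmk-1(-)* replicate 1 was at the other end. Without *pmk-1(-)* replicate 1 the sperm median was -0.12 and that of the oocyte list close to 0, and without wild type replicate 2 they were -0.13 and -0.15. The 6 vitellogenin genes, which encode yolk proteins, all lay below 0, with a median of -0.26 and none called. Summed, they reached 8960.2 to 13309 TPM in *pmk-1(-)* and 12806 to 12939 TPM in wild type. With the mean log2 level of the oocyte and eggshell list as a covariate, an alternative chosen after seeing the data, 303 genes were called, 55 higher and 248 lower, including all 81.

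**Figure D4:**
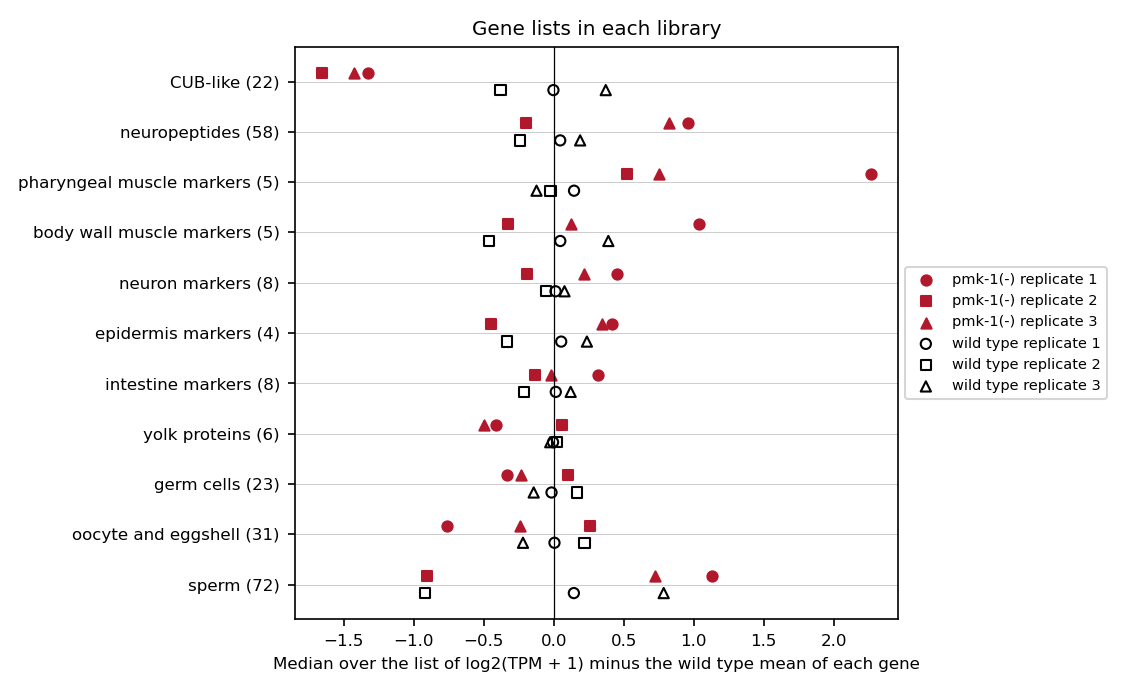
Median over the members of 11 lists of log2(TPM + 1) minus each gene's wild type mean (horizontal axis), with 1 symbol per library, *pmk-1(-)* filled in red above wild type in open black, and a symbol shape per replicate number. The CUB-like genes separate the genotypes in all libraries, from -1.65 to -1.33 in *pmk-1(-)* against -0.38 to 0.37 in wild type, whereas the gamete lists separate replicate 2 of both genotypes from the other libraries.

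Deviations from the genotype mean correlated between *pmk-1(-)* and wild type at 0.196, 0.856 and 0.424 for replicates 1, 2 and 3. The unlike pair of *pmk-1(-)* replicate 1 and wild type replicate 3 gave 0.771. A replicate block, which fits a shift per replicate number shared by all 9 genotypes, gave 215 called genes, 1.67% of those tested. Of these, 66 (0.514%) were higher and 149 (1.16%) lower, and all 81 were among them. The 134 further genes were 54 higher and 80 lower. Of the 10 with the smallest p, 9 were lower. Among them was *zip-2*, now called at -0.95 ± 0.14 log2 units (SE, limma, replicate block, adjusted p = 0.00318). The lysozyme *lys-1* had 168, 92.7 and 121.6 TPM in *pmk-1(-)*, against 263, 182 and 363 TPM in wild type, with each mutant library below the wild type library of its number (limma, replicate block, adjusted p = 0.00472). The same held for *dod-17*, with 3.10, 0.341 and 0.670 TPM in *pmk-1(-)* and 8.32, 3.96 and 17.7 TPM in wild type (limma, replicate block, adjusted p = 0.00744). The carboxypeptidase gene *pcp-2*, the aspartyl protease *asp-6* and the peptide *nlp-29* were lower as well, at -1.26, -0.59 and -1.95, as were *ZK1320.3*, *Y45F10D.6* and *F38B7.2*, at -0.59, -0.96 and -0.999. The exception was *F59B1.2*, which was higher, with 231, 191.6 and 347 TPM in *pmk-1(-)* and 151, 129 and 198 TPM in wild type, at 0.66 (limma, replicate block, adjusted p = 0.00696).

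By list, the block added calls in several groups. Among lysozymes, saposins and thaumatins 6 were called higher and 2 lower with it, the rises including *lys-5*, with 2.88, 1.30 and 3.26 TPM in *pmk-1(-)* and 0.647, 0.628 and 0.838 TPM in wild type, and the saposins *spp-4* and *spp-14*. Among neuropeptides 8 were called higher, *nlp-18*, *flp-24*, *nlp-14*, *nlp-37*, *nlp-35*, *nlp-3*, *flp-33* and *flp-3*, and none lower. In the cytosolic ribosome *rpl-10*, *rpl-35* and *rps-20* were called higher. In the p38 list *zip-2* was joined by *skn-1*, with 71.8, 99.9 and 71.6 TPM in *pmk-1(-)* and 98.5, 109 and 91.3 TPM in wild type, at -0.31 (limma, replicate block, adjusted p = 0.0831). The alcohol dehydrogenase *sodh-1*, at 1.14, and the peroxidase *gpx-3*, at 1.15, were also called higher only with the block. CUB-like genes called lower numbered 14, with *dod-17* and *dod-22* added. *dod-22* was listed at 0 in all 3 *pmk-1(-)* libraries, against 1.63, 0.558 and 3.43 TPM in wild type. In a fit of only the 6 libraries, without the spread pooled over the 9 genotypes, 19 genes were called without the block and 25 with it, 18 and 24 of them among the 81. Leaving out wild type replicate 1 or replicate 3 gave 52 and 53 calls, and leaving out *pmk-1(-)* replicate 2 gave 190, of which 103 were higher.

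The same mutation was next examined in animals with mutated *daf-16*, whose libraries are not part of the comparison above. With *daf-16(mgDf50)*, 52 genes were called between *daf-16(mgDf50);pmk-1(-)* and *daf-16(mgDf50)*, 0.405% of those tested. Of the 81 genes, 72 moved in the same direction there and 40 were called again, all of them lower. With *daf-16(m26)*, 46 genes were called, 0.358% of those tested. Of the 81 genes, 71 moved in the same direction and 35 were called again, 34 lower and 1 higher, *F56A4.3*. In all, 66 of the 81 moved the same way in both backgrounds, against 27.8% of all tested genes, and 28 were called in all 3 comparisons. The 69 genes that fell had a median log2 fold change of -1.37 with *daf-16* intact, -1.28 with *mgDf50* and -1.18 with *m26*. For the 12 that rose it was 1.25, 0.33 and 0.58. Each *daf-16* genotype had 2 libraries, and the genes were chosen for their change with *daf-16* intact, so a lower median elsewhere does not by itself show a difference.

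The genes called in all 3 comparisons include *C17H12.8*, *nlp-31*, *irg-4*, *dod-24*, *lys-2*, *T24B8.5*, *irg-5*, *ugt-44*, *clec-85*, *clec-65*, *cnc-4*, *K04F1.9*, *F01D5.1*, *swt-6*, *oac-20*, *fbxa-105* and *folt-2*. For *irg-5* the log2 fold change was -5.67 with *mgDf50* and -4.64 with *m26*, against -3.20 with *daf-16* intact. In the CUB-like list the median was -2.005 with *mgDf50* and -1.70 with *m26*, and 10 and 8 of 22 members were called. For *cpr-1* the log2 fold change stayed positive, at 0.79 with *mgDf50* and 1.12 with *m26*, but was not called in either (limma, adjusted p = 0.854 and 0.193). Of the 134 genes called only with the block, 28 had a log2 fold change of the opposite sign with *mgDf50* and 30 with *m26*. Without the block, 6 of the 134 were called with *mgDf50*, all in the same direction, and 4 with *m26*, of which *T03D3.5* was called in the opposite direction. The peptide gene *nlp-29* was called in both, at -3.39 and -3.27, whereas *zip-2*, at -1.16 and -1.23, was called in neither (limma, adjusted p = 0.294 and 0.23).

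**Figure D5:**
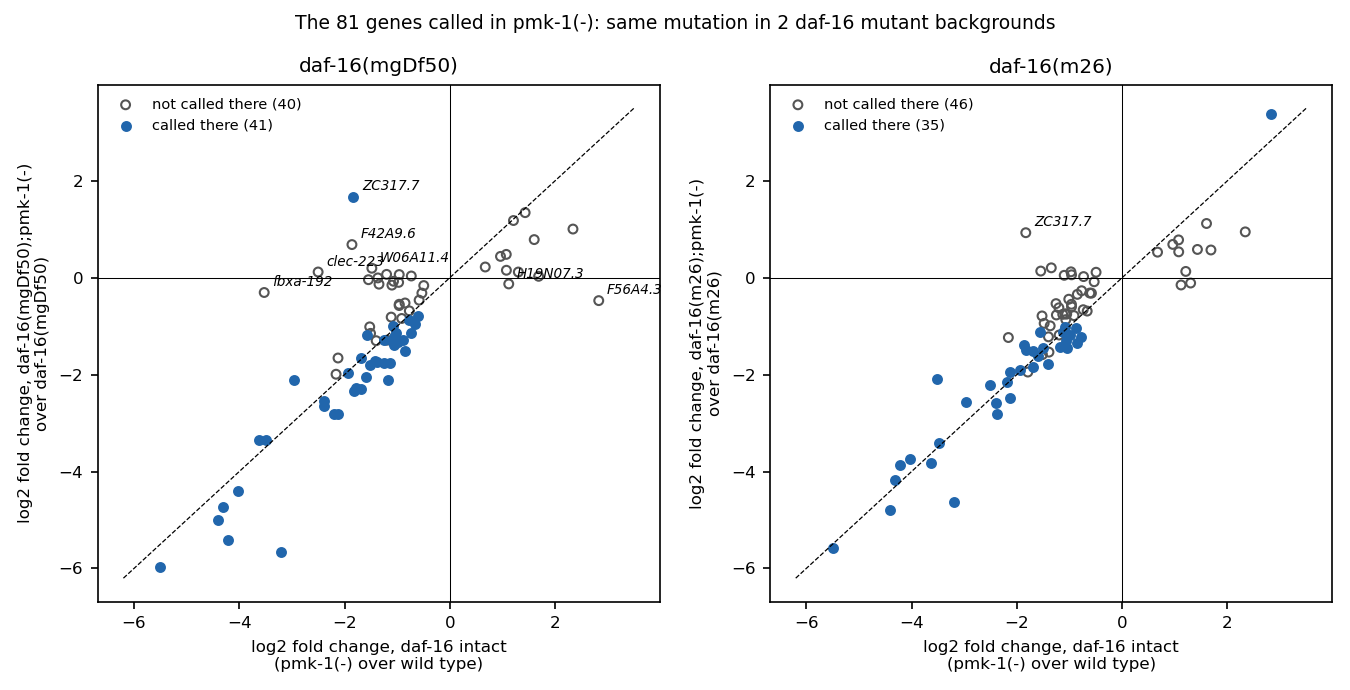
Log2 fold change of the 81 called genes in the presence of *daf-16* (horizontal axis, *pmk-1(-)* over wild type) against the log2 fold change of the same mutation in *daf-16(mgDf50)* (left, vertical axis) and *daf-16(m26)* (right, vertical axis), with genes called in that background filled and genes with a called interaction named. The dashed line marks equal changes, and genes with strong falls such as *C17H12.8* and *nlp-31* lie near it in both panels, whereas *ZC317.7* lies above 0 in both.

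A test of the difference between the *daf-16* intact and mutated backgrounds called 10 genes with *mgDf50*, 0.0779% of those tested, and 2 with *m26*, 0.0156%. Of the 81 genes, 7 were among the 10 and 1 among the 2. The F-box gene *fbxa-192* fell with *daf-16* intact but had a log2 fold change of -0.31 with *mgDf50*, a difference of 3.22 (limma, adjusted p = 0.00477). It stood at 1.46 to 1.59 TPM in *daf-16(mgDf50);pmk-1(-)*, against 1.604 to 2.74 TPM in *daf-16(mgDf50)*. The lectin *clec-223* had a log2 fold change of 0.12 with *mgDf50*, a difference of 2.62 (limma, adjusted p = 0.0146), with 0.761 to 1.08 TPM in *daf-16(mgDf50);pmk-1(-)*, against 0.496 to 1.08 TPM in *daf-16(mgDf50)*. With *m26* both genes fell, with log2 fold changes of -2.097 and -2.22. *ZC317.7* had the opposite direction in the *daf-16* backgrounds. It had 0.849, 1.28 and 2.90 TPM in *pmk-1(-)*, against 7.82, 8.63 and 7.73 TPM in wild type, but 7.33 to 9.31 TPM in *daf-16(mgDf50);pmk-1(-)*, against 1.71 to 2.13 TPM in *daf-16(mgDf50)*. The same was seen with 7.68 to 7.70 TPM in *daf-16(m26);pmk-1(-)*, against 3.00 to 4.22 TPM in *daf-16(m26)*. The differences were 3.501 with *mgDf50* and 2.76 with *m26* (limma, adjusted p = 0.000227 and 0.00749).

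Levels across all 21 libraries show which of the 81 genes followed the *km25* allele. In 45 of them, 44 lower and 1 higher, all 7 libraries with *km25* lay apart from all 14 libraries without it, against 0.615% of all tested genes. *nlp-31*, for example, had at most 1.02 TPM in the 7 libraries with *km25* and 18.9 to 53.5 TPM in the others. *T24B8.5* had 0.617 to 2.29 TPM with *km25* and 14.5 to 109.1 TPM without it. *ugt-44* had 1.07 to 1.95 TPM with *km25* and 10.4 to 37.6 TPM without it. The gene that was higher was *cpr-1*, with 210.0 to 428.6 TPM with *km25* and 58.3 to 187.2 TPM without it. The 3 *pmk-1(-)* libraries that chose the genes are among the 7, so this count is a description.

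In 4 others, *F25E5.1*, *T10B10.3*, *F36D3.1* and *snt-2*, the wild type libraries lay above all 18 mutant libraries, against 0.234% of all tested genes in either direction. The wild type and *pmk-1(-)* libraries that chose the genes are among those compared, so this count too is a description. The synaptotagmin *snt-2* had 14.1 to 21.1 TPM in the 18 mutant libraries and 27.7 to 45.5 TPM in wild type. The mutant libraries include both *daf-16* single mutants, which carry no *pmk-1* mutation. Genotype and strain cannot be told apart in these libraries. The remaining 32 followed neither pattern. *H19N07.3* had 2 levels. It stood at 22.2 to 32.2 TPM in *pmk-1(-)*, both *daf-16* single mutants, both *daf-16;pmk-1(-)* double mutants and *daf-16(m26);pmk-1(miy7)*, and at 8.62 to 13.1 TPM in *pmk-1(miy7)*, *daf-16(mgDf50);pmk-1(miy7)* and wild type. *F56A4.3* was present in all 7 libraries with *km25* and in *daf-16(mgDf50)*, where it had 11.45 to 14.8 TPM, and was listed at 0 in the other 12 libraries.

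By chromosome, the 81 called genes lay mainly on IV and V. Of the called genes, 29 (35.8%) were on IV and 28 (34.6%) on V, where 18.7% and 17.8% of the tested genes found in the annotation lie. The other chromosomes held 13 on II, 5 on X and 3 each on I and III. The *pmk-1* gene is on IV, and the nearest called gene, *F42A9.6*, was 109 protein-coding genes away in the WBcel235 gene order. Of 75 called protein-coding genes with a place, 18 (24%) had another called gene within 10 protein-coding genes, as did 653 of 11911 other tested genes (5.48%). The longest run of called genes with no gap over 10 lay on IV, with 8 called genes from *ZK896.4*, 1107 protein-coding genes from *pmk-1*, to *F55G11.4*. After *ZK896.4* the next called gene was *K08D8.4*, and the stretch from there to *F55G11.4* spanned 22 protein-coding genes, 9 of which were tested. All 9 lay below 0 and 7 were called, all lower, namely *K08D8.4*, *K08D8.5*, *C32H11.4*, *dod-24*, *F55G11.8*, *F55G11.2* and *F55G11.4*. The tested genes of the stretch that were not called were *dod-22*, called with the block, and *C32H11.3*, with a mean of 0.634 TPM in *pmk-1(-)* and 1.07 TPM in wild type (limma, adjusted p = 0.746). With *ZK896.4*, 8 of the 12 called genes of the CUB-like list lay in this run.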

How the data were processed

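mRNA of whole animals was sequenced from poly-A RNA in 21 libraries of 9 genotypes, of which 6 were compared. Per the study's methods, the single-end reads of 76 bases were trimmed, mapped with STAR (2.5.3a in the submitters' processing notes, which also name the ce10 build), cleared of duplicates with Picard 2.10 and counted over RefSeq genes with featureCounts. The deposited table holds TPM that the authors computed from those counts, so it keeps no depth, and no interval for counting error was possible. A further 8 deposited tables hold the authors' own comparisons, with fold changes and p-values, and were not used.

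Genes that averaged 1 TPM or more across libraries were fitted as log2(TPM + 1) in limma 3.58.1 under R 4.3.3 (trended, robust variances), all 9 genotypes together, with Benjamini-Hochberg adjustment over 12843 genes and a threshold of 0.1, after the threshold of the study. The study's edgeR test needs counts and was not repeated. The fit was tested on simulated data of 12843 genes, of which 200 outside the lowest levels were changed. It recovered 13.5% of changes of 0.5 log2 units, 78.5% of 1 and 96% of 2. Of the unchanged genes it called 3, 18 and 28. The simulated noise was independent between genes, unlike the shared variation between these libraries, so the simulation does not cover that variation. The same fit gave the effect in both *daf-16* backgrounds and its difference from that with *daf-16* intact. Deviations from the genotype mean were compared between *pmk-1(-)* and wild type libraries of the same number. They correlated across genes at 0.196, 0.856 and 0.424 for replicates 1, 2 and 3, all above 0.1. The number was therefore used as a block over all 9 genotypes, and the block result is given beside the count. Unlike numbers can correlate too, since *pmk-1(-)* replicate 1 and wild type replicate 3 gave 0.771.

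The comparison and the 54 gene lists were chosen with earlier results of these data known. The genes named were *pmk-1* and its pathway, the 12 largest rises and 18 largest falls among called genes whose groups did not overlap, the called members of each list with up to 4 of its most abundant others, the 10 genes of smallest p called only with the block, and called genes that differed between *daf-16* backgrounds. Other genes named, such as *nlp-18*, *flp-24*, *rpl-10*, *lys-5* and *cpr-5*, were chosen after their values were seen. Gene order and host genes come from the WBcel235 annotation, used for names and order only, in which 12611 of the tested genes were found. Alternatives were other pseudocounts, filters, scaling and thresholds, fits of 6 libraries, the block, each library left out, and 2 added after seeing the data.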

Additional observations from a re-analysis of the deposited data

Results flagged for a closer look

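In 7 of the 81 genes called in *pmk-1(-)* the effect of the mutation with *daf-16(mgDf50)* differed from that with *daf-16* intact, and in 1 of them also with *daf-16(m26)*, by the interaction term of the limma fit. The values are differences of log2 fold changes, the *daf-16* background minus *daf-16* intact, with adjusted p over all tested genes, and each *daf-16* genotype had 2 libraries.

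The difference was 3.22 for *fbxa-192* (limma, adjusted p = 0.00477). The gene had 1.46 to 1.59 TPM in *daf-16(mgDf50);pmk-1(-)*, against 1.604 to 2.74 TPM in *daf-16(mgDf50)*, but 26.8 to 29.6 TPM in *daf-16(mgDf50);pmk-1(miy7)*. For *clec-223* it was 2.62 (limma, adjusted p = 0.0146), with *daf-16(mgDf50)* at 0.496 to 1.08 TPM. For *F42A9.6* it was 2.54 (limma, adjusted p = 0.00991), with 58.9 to 64.4 TPM in *daf-16(mgDf50);pmk-1(-)*, against 30.8 to 46.8 TPM in *daf-16(mgDf50)*, and 21.8 to 30.1 TPM in *daf-16(m26);pmk-1(-)*, against 63.2 to 75.3 TPM in *daf-16(m26)*. *ZC317.7* differed by 3.501 with *mgDf50* (limma, adjusted p = 0.000227) and by 2.76 with *m26* (limma, adjusted p = 0.00749). The pseudogene *W06A11.4* differed by 1.68 (limma, adjusted p = 0.0795), with 10.8 to 13.5 TPM in *daf-16(mgDf50);pmk-1(-)*, against 8.87 to 12.2 TPM in *daf-16(mgDf50)*.

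For 2 genes that were higher in *pmk-1(-)* the difference was negative. It was -1.25 for *H19N07.3* (limma, adjusted p = 0.0795), with 22.2 to 27.5 TPM in *daf-16(mgDf50);pmk-1(-)*, against 26.7 to 27.6 TPM in *daf-16(mgDf50)*. It was -3.30 for *F56A4.3* (limma, adjusted p = 5.54e-05), with 6.75 to 12.2 TPM in *daf-16(mgDf50);pmk-1(-)*, against 11.45 to 14.8 TPM in *daf-16(mgDf50)*. In both genes *daf-16(mgDf50)* without a *pmk-1* mutation was as high as *pmk-1(-)* or higher. Strain and genotype cannot be told apart for these values.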

How the results depend on the processing

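Of the 81 calls, 45 were kept whichever library was left out, and none of the 81 changed direction under any of the 19 alternatives. Leaving out 1 library gave 52 to 190 calls, 5 to 103 of them higher and 45 to 87 lower. A fit of only the 6 libraries called 19 genes, 2 higher and 17 lower. With the replicate block 215 were called over 9 genotypes, 66 higher and 149 lower, and 25 over 6 libraries, 2 higher and 23 lower. With the oocyte and eggshell level as a covariate, added after seeing the data, 303 were called, 55 higher and 248 lower. Rescaled to a median log ratio of 0, 43 were lower and 11 higher, so the share of rises was 20.4%, against 14.8% unscaled and 30.7% with the block. The 28 genes called in both *daf-16* backgrounds too became 14 when rescaled, 59 with the block and 108 with the covariate. The cause of these shifts was not tested. A pseudocount of 0.1 gave 92 calls, 0.5 gave 82, unfiltered data 78, a minimum of 5 TPM 61, the filter over 6 libraries 80, a threshold of 0.05 68, plain limma variances 85, and leaving out 21ur and mir features 78. Read depth is unknown, so the precision of low values, such as the 23 called genes under 5 TPM in wild type, cannot be set from counts.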

Other observations

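Genes of protein turnover, protein folding and cell death lay mostly below 0, and none was called. Of 31 tested autophagy and TOR genes 5 lay above 0, of 23 caspase and cell death genes 4, of 54 chaperones 11 and of 30 proteasome genes 3, against 42.7% of all tested genes. With libraries rescaled 12, 9, 22 and 17 of them lay above 0, and the proteasome median turned to 0.02. These lists followed single libraries. In each, the median deviation from the wild type mean was lowest in *pmk-1(-)* replicate 1 and above 0 in replicate 2 of both genotypes. For the proteasome it was -0.31, 0.14 and -0.07 in *pmk-1(-)* replicates 1, 2 and 3, against -0.02, 0.14 and -0.12 in wild type. In the *daf-16* backgrounds 27 of 30 proteasome genes lay above 0 with *mgDf50* and 29 with *m26*. The list of 7 tested genes of the intracellular pathogen response, a program against viruses and microsporidia, had 5 above 0 with a median of 0.08 and no call.

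Of 8 tested genes of the osmotic and cuticle damage response, 1 was called lower, and of 21 tested dod and *daf-16* target genes 2 were, *dod-24* and *dod-23*. The gene *dod-23* had 64.9, 94.3 and 89.7 TPM in *pmk-1(-)*, against 153, 146 and 184 TPM in wild type, a change of -0.96 ± 0.16 log2 units (SE, limma, adjusted p = 0.00824). Of 28 tested insulin-like peptides and pathway genes none was called, and *ins-28* was called higher with the replicate block, with 4.21, 1.43 and 5.44 TPM in *pmk-1(-)* and 1.41, 0.352 and 1.46 TPM in wild type.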
